A study of Homo sapiens with 4 samples.

Results

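Transfer RNA (tRNA) genes of the human genome were examined for open chromatin in LNCaP prostate cancer cells and in enzalutamide-resistant LNCaP cells. The members were the nuclear tRNA genes that RefSeq places on chromosomes 1 to 22 of GRCh38.p14. A flank of 500 bp was added to both ends of each gene, and windows that overlapped were joined, which turned 425 tRNA genes into 348 regions. Of these tRNA regions, 294 held 1 gene and 54 held several. A further 14 tRNA genes of the table lie on sequences outside the assembled chromosomes and were left out. A summit of at least 1 of the 4 libraries lay in 222 of the 348 regions, and 126 regions had none. The whole series, treated the same way around its own summits, held 147215 merged summit regions on these chromosomes, of which 280 touched a tRNA region.

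Accessibility was measured by ATAC-seq, in which a transposase cuts and tags DNA that is not packed into nucleosomes. There were 2 libraries of LNCaP, an established androgen-sensitive prostate cancer line labelled wild type, and 2 of LNCaP-resistance, resistant cells derived from that line and labelled as treated with enzalutamide, an androgen receptor inhibitor. Both were grown in RPMI-1640 medium with serum. The authors' paper states that resistant sublines were made from cells adapted to charcoal-stripped serum, to mimic androgen deprivation. Serum may therefore differ between the groups. The labels name no treatment for LNCaP, give no subline or clone for the resistant cells, and they number the libraries of each group as repeats 1 and 2 without saying that these came from separate cultures. Any p-value therefore measures only the spread between these libraries, which may be technical.

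tRNA genes are short genes read by RNA polymerase III, and many exist in several identical copies spread over the genome. Their promoter lies inside the gene: transcription factor IIIC binds an A box near the start and a B box near the end of the transcribed part, and it places transcription factor IIIB just upstream, where the polymerase is recruited. A gene that is in use is held free of nucleosomes over and before its start, whereas many other copies in the same cell stay closed. In the gene names used here the letter after TR is the amino acid, followed by the anticodon, a number for the sequence variant and a number for the copy. TRX marks the initiator methionine tRNA, which starts every protein, and TRU the selenocysteine tRNA.

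The reference sequences at hand covered 14 of the 425 genes in full, those that lie inside the 300 bp start window of another gene. The strand of each was read from its B box core, GTTCNANNC, in which N is any base. This core was present in 14 of 14 genes and in 7.48% of 34796 start windows of RefSeq genes on either strand. The core was added after the data were seen and also set the strand, so its count in the genes is no test. The A box in its wider consensus form was present in 12 of 14 genes and in 21.7% of start windows. A stricter form of the B box, which overlaps the core, was found in 5 of 14 genes and 0.0833% of windows, and a stricter form of the A box in 0 of 14 genes and 0.376% of windows. TATAA and TTTT, the letters of a TATA box and a terminator, lay inside 0 of 14 genes, and 20.5% and 71.4% of windows held them. The windows are longer than the genes and were searched on both strands, whereas each gene was searched on its own strand. The A box consensus was sought only near the start of each gene. The shares of genes and windows are therefore not comparable, and a match is a description of letters only. The sequences below carry the comparisons that follow, from RefSeq GRCh38.p14, 5′ to 3′ on the gene's own strand, with the A box consensus and the B box core in capitals.

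The first pair are asparagine tRNA genes that share 71 of 74 bases (95.9%), yet TRN-GTT6-1 had a strong summit in every library and TRN-GTT4-1 had none in any. TRN-GTT4-1 lies at chr1:16889677-16889750 (plus strand) and TRN-GTT6-1 at chr1:143735920-143735993 (minus strand).
TRN-GTT4-1: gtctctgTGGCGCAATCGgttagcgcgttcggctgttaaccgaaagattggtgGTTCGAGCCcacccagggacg
TRN-GTT6-1: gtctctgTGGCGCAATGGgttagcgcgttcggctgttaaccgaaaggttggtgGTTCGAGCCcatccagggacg

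The next sequence belongs to 2 histidine genes that are identical over 72 bases, TRH-GTG1-3 at chr1:148281365-148281436 without a summit and TRH-GTG1-9 at chr15:45201151-45201222 in a region found in every library. The one after it belongs to 2 identical proline genes, TRP-TGG3-2 at chr14:20684016-20684087 and TRP-TGG3-5 at chr16:3188094-3188165. The former shares a region found in every library with TRY-GTA5-5, and the latter had a summit in resistant replicate 1 alone. In the shared regions of TRH-GTG1-9 and TRP-TGG3-2 the strongest summits lay upstream of these genes, between -631 and -609 bp and between -1187 and -1169 bp from their starts. How reads that match several copies were placed is not given, so a missing summit at such a copy need not mean a closed gene.
TRH-GTG1-3: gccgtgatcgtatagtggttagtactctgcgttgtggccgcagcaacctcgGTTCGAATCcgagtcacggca
TRP-TGG3-2: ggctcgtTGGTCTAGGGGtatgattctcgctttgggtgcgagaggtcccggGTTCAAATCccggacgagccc

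The last 3 are shown for their summits. TRI-TAT2-2, an isoleucine gene at chr6:27020346-27020439 (plus strand), held the strongest summits found in LNCaP alone, while TRR-ACG2-1, an arginine gene at chr3:45688999-45689071 (minus strand), and TRF-GAA1-5, a phenylalanine gene at chr13:94549650-94549722 (minus strand), were among the strongest regions of every library. TRI-TAT2-2 carries an intron between its boxes.
TRI-TAT2-2: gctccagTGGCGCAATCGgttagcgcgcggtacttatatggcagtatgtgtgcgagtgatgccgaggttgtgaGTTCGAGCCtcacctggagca
TRR-ACG2-1: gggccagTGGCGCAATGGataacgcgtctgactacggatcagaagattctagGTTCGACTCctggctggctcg
TRF-GAA1-5: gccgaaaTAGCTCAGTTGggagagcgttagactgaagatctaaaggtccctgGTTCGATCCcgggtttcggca

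The authors' file for each library lists peak summits, with 1 position and 1 score per peak. LNCaP replicate 1 had 117245 summits and replicate 2 had 107344, whereas LNCaP-resistance replicate 1 had 70866 and replicate 2 had 45618. They hold no read counts, so the depth behind them is unknown. Scores were compared only as percentiles, the percent of the library's own summits with an equal or lower score, and a region without a summit was given 0. Of 9 luminal prostate genes, 7, 8, 8 and 7 had a summit within 500 bp of a gene end in the 4 libraries. KLK3, which encodes prostate-specific antigen, had none there in any library.

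The share of tRNA regions with a summit overlapped between the cell types, although the resistant lists were shorter. LNCaP replicate 1 had a summit in 187 of 348 regions (53.7%, 95% Wilson interval 48.5% to 58.9%) and replicate 2 in 176 (50.6%, 45.3% to 55.8%). LNCaP-resistance replicate 1 had one in 182 (52.3%, 47.1% to 57.5%) and replicate 2 in 163 (46.8%, 41.7% to 52.1%). The groups overlapped, since resistant replicate 1 lay between the LNCaP libraries. LNCaP averaged 52.2% ± 2.24 (SD, n = 2), against 49.6% ± 3.86 (SD, n = 2) for LNCaP-resistance, a difference of -2.59 percentage points within the pooled SD of 3.15. It was -1.44 within replicate number 1 and -3.74 within number 2. A two-sided exact permutation test over the 4 libraries gave p = 0.667, and 0.333 is the smallest p that 2 against 2 allows. All merged summit regions, which were chosen by these summits, had a summit in 72.1% ± 4.68 of cases in LNCaP and in 37.6% ± 11.2 in LNCaP-resistance (SD, n = 2). The starts of protein-coding genes had one in 48.5% and 48.5%, against 52.0% and 48.0%, and other genes of at most 200 bp in 7.36% and 6.86%, against 5.72% and 4.21%. The direction depended on list length. When each list was reduced to its 45618 strongest summits, the share was 13.6 percentage points higher in LNCaP-resistance (exact permutation p = 0.333). Without resistant replicate 2, which had the shortest list, the difference was 0.144 points.

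**Figure D1:**
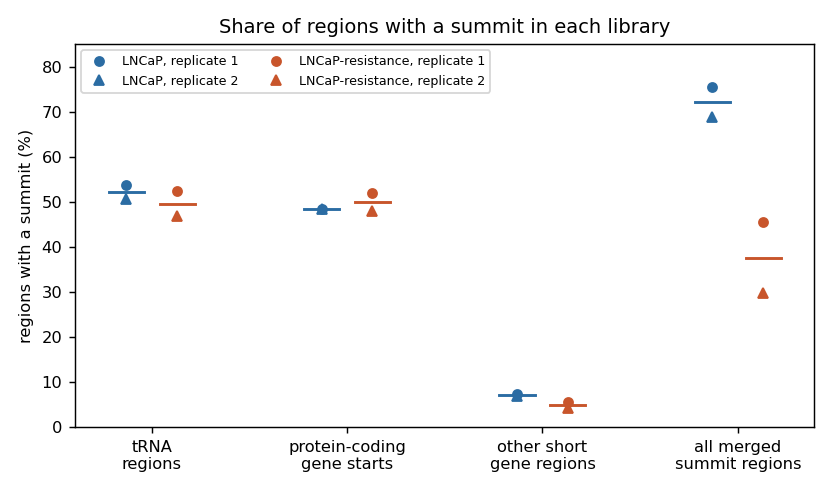
Percent of regions with a summit (vertical axis) in each of the 4 libraries, for tRNA regions and 3 comparison sets; points are libraries and bars are the mean of 2 libraries. The tRNA regions sit between 46.8% and 53.7% with the cell types overlapping, whereas all merged summit regions fall into separate groups.

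Most of the tRNA regions that were found were found in all 4 libraries. Of the 222, 132 (59.5%, 95% Wilson interval 52.9% to 65.7%) had a summit in all 4 libraries, beside 21.1% of all merged summit regions, 31% of other short gene regions and 67.3% of protein-coding gene starts. The tRNA windows add 500 bp per side to genes and the merged regions 250 bp per side to summits, so their widths are not matched. With tRNA windows of 250 bp per side, 79 regions in place of 132 had a summit in all 4 libraries. With these windows 23 had one in both LNCaP libraries and in no resistant one. Shares of the found regions were not computed for these windows, so how far 59.5% depends on width was not tested. LNCaP-only regions, which each LNCaP library had and no resistant one did, numbered 14 (6.31%), beside 27.6% of merged regions, 19.9% of other short gene regions and 3.83% of protein-coding gene starts. Resistant-only regions numbered 9 (4.05%), beside 3.81%, 4.67% and 5.5% in these sets. The other 67 (30.2%) were mixed, beside 47.5%, 44.5% and 23.4%. Of these mixed regions, 30 had a summit in 3 libraries, 7 in 2 and 30 in 1. In 15 of the mixed regions only resistant replicate 2 lacked the summit. The counts of tRNA regions in 1 cell type also followed list length: with equal numbers of summits they were 2 LNCaP-only and 33 resistant-only of 186 found (1.08% and 17.7%), beside 17.4% and 14.8% of merged regions.

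The libraries had most of their tRNA regions in common. The LNCaP libraries had 84.3% of their combined tRNA regions in common, and the resistant libraries 77.8%. The 4 pairs of an LNCaP with a resistant library had between 69.1% and 74.9% in common, where the same pairs shared between 29.0% and 36.6% of all merged summit regions. These shares are a description, since the pairs use the same libraries and the tRNA windows and merged regions are not matched in width.

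**Figure D2:**
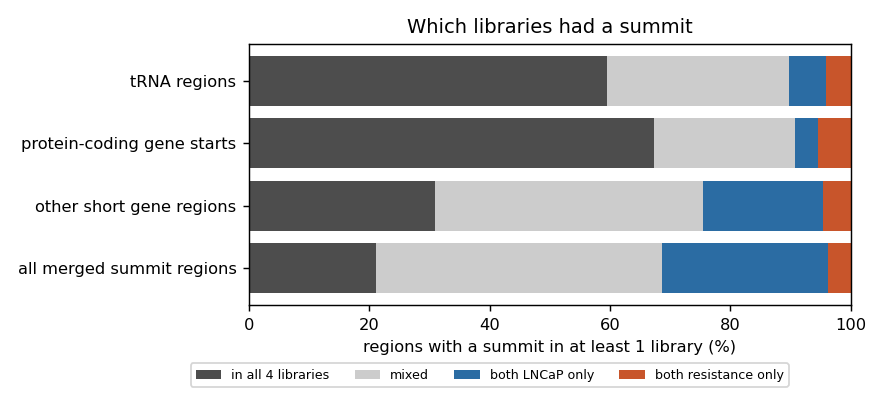
Share of the regions with a summit in at least 1 library (horizontal axis, percent) that had one in all 4 libraries, in both libraries of 1 cell type and neither of the other, or in another mix. The dark part is 59.5% for tRNA regions and 21.1% for all merged summit regions, and the LNCaP-only part is 6.31% and 27.6%.

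The strongest tRNA regions were at the top of all 4 lists. TRR-ACG1-3, an arginine gene at chr14:22929701-22929773 and 325 bp from an end of PRMT5, an arginine methyltransferase gene, was at percentiles 99.8 and 99.7 in LNCaP, against 99.2 and 98.6 in LNCaP-resistance. TRM-CAT2-1, an elongator methionine gene on chromosome 16, was at 97.7 and 97.8 against 97.7 and 96.0. TRD-GTC2-8, an aspartate gene on chromosome 12, was at 99.1 and 96.1 against 96.0 and 97.6. The last 2 overlapped between the cell types, and at TRR-ACG1-3 both LNCaP libraries were higher, with a difference of -0.833 points. TRR-ACG2-1, whose sequence is given above, was at 94.1 and 91.7 against 97.7 and 98.6, so both resistant libraries were higher. It lies 325 bp from an end of SACM1L, a protein-coding gene. Next came TRQ-TTG1-1 (glutamine), TRX-CAT1-1 (initiator methionine), TRR-TCG1-1 (arginine), TRF-GAA1-5, TRY-GTA5-4 (tyrosine) and the region of TRL-CAG2-1 and TRL-CAG2-2 (leucine). Of these 10 regions, 5 lay within 1 kb of a protein-coding gene end and 9 lay outside the tRNA gene clusters described below.

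The median levels of the cell types overlapped. Over the 132 regions found in every library the median percentile in LNCaP was 75.2 and 70.0, and that in LNCaP-resistance 73.5 and 67.9. The groups overlapped, with a difference of -1.90 points against a pooled SD of 3.83, -1.68 within number 1 and -2.11 within number 2 (two-sided exact permutation test, p = 0.667). The median change per region, mean of the resistant libraries minus mean of the LNCaP libraries, was -1.27 points, beside -4.76 for the 31048 merged regions found in all 4, 0.475 for protein-coding gene starts and 0.333 for other short gene regions. With lists of equal length this median was 17.0 points, beside 4.47 for merged regions, and among the summits shared by all 4 libraries it was 6.42, beside 0.728.

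A region was counted as apart when both libraries of 1 cell type were above both of the other. With 2 libraries per cell type, a region that is apart always differs by more than its pooled SD. The pooled SDs given below for such regions are therefore descriptive and add no support. Among the 222 found regions 41 (18.5%) were apart with LNCaP-resistance higher and 58 (26.1%) with LNCaP higher. The background is 8.93% and 42.7% of all merged regions, 16.3% and 32.4% of other short gene regions, and 27.9% and 19.5% of protein-coding gene starts. Among the 132 found everywhere, 26 (19.7%) were higher in LNCaP-resistance, 35 (26.5%) were higher in LNCaP and 71 overlapped. For merged regions found everywhere these shares were 17.6% and 42.2%. The balance over the 222 regions, 41 against 58, turned to 108 against 7 over the 186 regions found with lists of equal length. With scores of at least 10 it was 33 against 30 over the regions then found. Percentiles among the summits shared by all 4 libraries gave 49 against 13. That count covers the 127 regions with such a summit in every library, so it stands beside the 26 against 35 of the 132.

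The LNCaP-only regions were led by TRI-TAT2-2. Its LNCaP summits were at percentiles 96.6 and 91.5, and the resistant libraries had none. The closest summits of the resistant libraries lay 39310 and 32846 bp beyond its window, at percentiles 39.2 and 9.58. The gene lies in the start window of LARRPM, a long noncoding RNA gene. TRC-GCA13-1, a cysteine gene at chr7:149355675-149355746, followed with 53.6 and 72.4. TRA-AGC15-1 (alanine, chromosome 14) had 51.3 and 60.2, and TRP-AGG2-3 (proline, chromosome 7) had 59.0 and 51.7. The other 10 LNCaP-only regions had between 3.23 and 71.7, so most were of middle or low rank. By gene they were TRL-CAA2-1, TRP-TGG1-1, TRS-GCT6-1, TRT-AGT4-1, TRC-GCA9-4, TRS-AGA4-1, TRL-TAA2-1, TRA-TGC7-1, TRA-TGC5-1 and TRK-TTT3-3. Of the 14, 9 lay on chromosome 6, 3 on chromosome 7 and 2 on chromosome 14. These chromosomes held 81, 7 and 13 of the 222 found tRNA regions. In 1 of the 14, TRP-TGG1-1, a resistant library had a summit within 1 kb of the window, 239 bp beyond it. The median distance to the nearest resistant summit was 6365.5 bp.

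The strongest resistant-only region ranked below the strongest LNCaP-only one, and the percentiles of both classes otherwise overlapped. TRV-TAC3-1, a valine gene at chr10:5853711-5853783, was at percentiles 75.8 and 63.6 in LNCaP-resistance and had no summit in LNCaP, whose nearest lay 17519 bp beyond the window. TRQ-CTG4-1 (glutamine, chromosome 1) had 66.7 and 38.6, while LNCaP summits at percentiles 98.4 and 94.6 lay 876 and 922 bp beyond its window. TRS-GCT3-1 (serine, chromosome 11, 491 bp from an end of B4GAT1) had 52.1 and 53.0. At TRS-GCT3-1 the LNCaP libraries had summits 160 and 109 bp beyond the window, at percentiles 59.5 and 49.6, so its class rests on the window. The others were TRN-GTT2-8, TRQ-CTG4-2, TRR-ACG2-2, TRV-CAC1-7, TRV-CAC5-1 and TRA-AGC4-1, between 4.67 and 53.0. Of the 9 regions, 5 were on chromosome 1, which held 36 of the 222 found tRNA regions. In 3 of the 9 an LNCaP library had a summit within 1 kb of the window.

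Some regions with a summit in every library differed by more than the median. TRF-GAA2-1, a phenylalanine gene at chr11:59566380-59566452, was at percentiles 83.5 and 83.3 in LNCaP, against 40.1 and 23.8 in LNCaP-resistance. Its difference was -51.4 points, with a pooled SD of 8.14. A neighbouring region, with TRK-TTT5-1 and TRF-GAA1-3, was at 63.2 and 81.5 against 58.5 and 42.0, a difference of -22.1 points that turned to 7.71 with lists of equal length. TRK-CTT2-5 (lysine, chromosome 16) was at 54.0 and 76.8 against 31.1 and 24.4. The region of TRG-GCC3-1 and TRG-GCC2-4 (glycine, chromosome 16) was at 93.0 and 76.5 against 74.2 and 47.5, and that of TRA-CGC3-1 and TRG-GCC2-2 on chromosome 2 at 80.1 and 87.4 against 68.7 and 52.9. In these last regions resistant replicate 2 was the lowest library. With lists of equal length the difference at TRF-GAA2-1 was -43.7 points, whereas that at TRK-CTT2-5 went from -37.7 to -10.5 and that at the TRA-CGC3-1 region from -22.9 to -7.40. The TRG-GCC3-1 region went from -23.9 to -9.63, and to 4.29 among shared summits.

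In the other direction, TRV-CAC2-1, a valine gene at chr6:27280270-27280342, was at percentiles 47.8 and 27.1 in LNCaP, against 82.2 and 69.0 in LNCaP-resistance, a difference of 38.2 points against a pooled SD of 12.3. TRE-TTC2-1 (glutamate, chromosome 13) was at 59.2 and 44.9 against 83.9 and 78.8. The other 3 of the 5 largest differences were asparagine genes of chromosome 1. TRN-GTT7-1 at chr1:120844262-120844335 was at 47.8 and 47.8 against 91.6 and 70.5. TRN-GTT25-1 at chr1:149558419-149558493 was at 47.8 and 58.6 against 86.1 and 79.6. TRN-GTT2-1 at chr1:148529257-148529330 was at 50.7 and 69.3 against 90.7 and 86.1. Each of these 3 genes lay between 2033 and 2058 bp from an end of a gene of the NBPF family, which is present in many copies on this chromosome. With lists of equal length all 5 of these differences were larger, between 70.7 points at TRV-CAC2-1 and 78.8 at TRN-GTT7-1.

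On chromosome 1 more tRNA regions were higher in LNCaP-resistance than in LNCaP. With lists of equal length the counts were 24 against 0 on chromosome 1 and 108 against 7 over all chromosomes, so that direction was then not particular to chromosome 1. With scores of at least 10 they were 8 against 1 and 33 against 30. Of its 66 tRNA regions 36 were found, 14 of them apart with LNCaP-resistance higher and 3 with LNCaP higher (38.9% and 8.33%). Over all merged summit regions of chromosome 1 these shares were 9.86% and 41.2%. The median change was 9.26 points for its tRNA regions and -11.8 for its merged regions. No LNCaP-only region was on chromosome 1. Of the 12 chromosomes with 5 or more found tRNA regions, 10 had more regions apart with LNCaP higher, and chromosome 19 was the other one with more in LNCaP-resistance, 2 against 1. Asparagine genes of chromosome 1 had 10 found of 17 regions, with 5 apart with LNCaP-resistance higher, 1 with LNCaP higher and a median change of 18.5 points. The tRNA regions of other amino acids there had 26 found of 49, with 9 and 2 apart and a median change of 8.89 points.

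Most of these lay in a span from 120 to 150 Mb, which was chosen after the values were seen. It held 31 tRNA regions, 17 of them found. LNCaP-resistance was higher in 12 of the 17 (70.6%) and LNCaP in 0, and 5 were resistant-only. Their median percentile in LNCaP was 47.8 and 43.6, against 63.9 and 45.5 in LNCaP-resistance, so the medians of the libraries overlapped. The 271 merged summit regions of the same span were 20.7% and 28.8% apart, with a median change of -0.960 points, against -13.5 before the span and -10.2 after it. Beyond 150 Mb, 1 tRNA region was higher in LNCaP-resistance and 3 in LNCaP, of 14 found. Leaving out 1 library in turn gave between 15 and 22 regions of chromosome 1 higher in LNCaP-resistance and between 4 and 10 higher in LNCaP. These counts can only stay or rise that way, since fewer libraries have to agree. The count higher in LNCaP was 10 without LNCaP replicate 2 and 9 without resistant replicate 1, and that higher in LNCaP-resistance was 22 without resistant replicate 2.

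**Figure D3:**
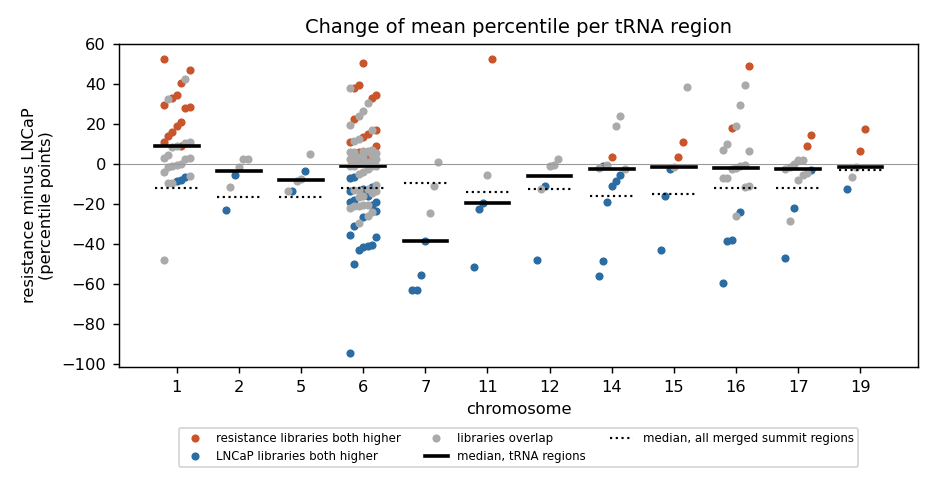
Difference of the mean percentile, LNCaP-resistance minus LNCaP (vertical axis, percentile points), for each tRNA region with a summit, on the 12 chromosomes with 5 or more such regions. Solid bars are medians of tRNA regions and dotted bars medians of all merged summit regions; on chromosome 1 the solid bar is at 9.26 and the dotted bar at -11.8, while on chromosome 7 the solid bar is at -38.2.

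Many tRNA genes lie in clusters, and a smaller share of the clustered regions was found. Chaining regions over gaps of at most 250 kb gave 12 clusters with 5 or more regions, which held 231 of the 348 regions. Of the clustered regions 130 (56.3%) were found and 70 (30.3%) were found in every library. Of the 117 regions outside them 92 (78.6%) were found and 62 (53.0%) were found in every library. LNCaP-only regions numbered 12 in clusters and 2 outside, and resistant-only regions 3 and 6. The clusters were 4 on chromosome 1 (a to d), 3 on chromosome 6 (a to c) and 1 each on chromosomes 5, 7, 14, 16 and 17.

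The largest cluster, chr6:26286026-27903478, lies in the part of chromosome 6 that also holds the histone genes, and it held 90 regions. There 50 were found, 27 in every library, 6 were LNCaP-only and 1 was resistant-only, and 7 were apart with LNCaP-resistance higher and 14 with LNCaP higher. Summits were seen in 40, 40, 40 and 32 of the 90 regions in LNCaP 1, LNCaP 2, resistance 1 and resistance 2. Of the 127 other summit regions within 250 kb, 8.66% were LNCaP-only and 7.09% resistant-only, and 22 were apart with LNCaP-resistance higher and 28 with LNCaP higher. The median change was -3.08 points, beside -0.831 for these neighbours. The next cluster, chr6:28474052-28989583, had 28 of 38 found, 12 in every library and 3 LNCaP-only. The third chromosome 6 cluster, chr6:57799711-57856973, had no summit in any of its 6 regions, although 9 other summit regions lay within 250 kb.

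The cluster chr7:149309690-149708240, which is made mostly of cysteine genes, had the lowest share of found regions outside chromosomes 1 and 6 and the most negative median change. Of its 19 regions, 5, 5, 3 and 2 had a summit in the 4 libraries, 2 were found in every library, 2 were LNCaP-only and 0 were resistant-only. LNCaP was higher in 3 of the 5 found regions and LNCaP-resistance in 0. The median percentile of the 5 in LNCaP was 69.0 and 58.6, against 8.20 and 0 in LNCaP-resistance, so the groups did not overlap, with a median change of -38.2 points. These medians were not run with lists of equal length. With such lists the difference at the LNCaP-only TRC-GCA13-1 went from -63.0 to -17.6 points. TRC-GCA9-4, also LNCaP-only, then had no summit in any library. The other 83 summit regions of the neighbourhood were also lower in LNCaP-resistance, with a median of -11.5 points and 24.1% LNCaP-only.

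In contrast, the cluster chr17:8118655-8227564 was found in both cell types, with 5 of 6 regions found, all 5 in every library. Its 6 regions hold 18 genes. The median percentile in LNCaP was 64.0 and 52.0, against 72.9 and 65.0 in LNCaP-resistance, without overlap and with a median change of 2.10 points, beside -6.68 for the 77 other summit regions around it. The cluster chr14:20608836-20684587 had 9 of 11 found and a median change of -2.41 points, beside -19.3 for its neighbourhood, and chr16:3150174-3192560 had 11 of 13 found but 4 in every library. On chromosome 1, the cluster chr1:161399200-161612529 with 32 genes had 9 of 17 found and 7 in every library, with a median change of -0.223 points beside -7.39 around it.

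**Figure D4:**
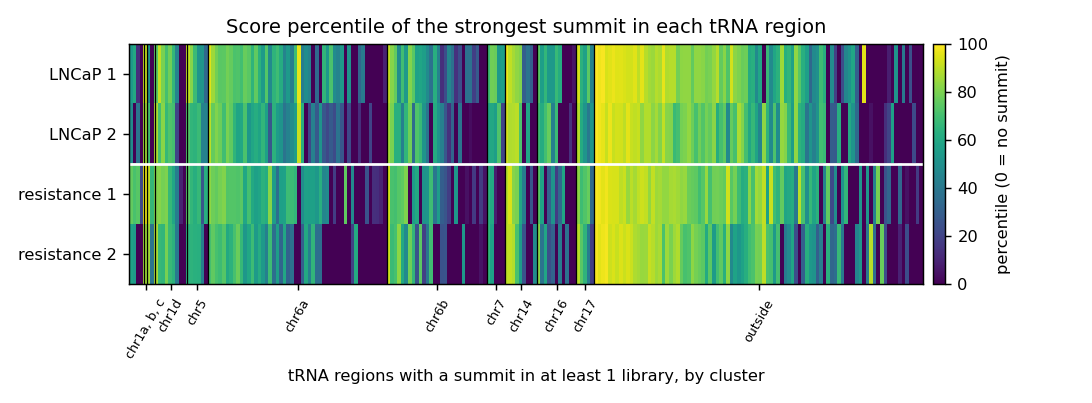
Score percentile (colour, 0 where no summit was called) of the strongest summit in each of the 222 found tRNA regions, 1 column per region and 1 row per library, grouped by cluster and ordered by mean percentile within it. The group outside clusters holds most of the bright columns, and the chr7 columns are dark in the resistance rows; the chr6c cluster has no column because it had no summit.

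Every amino acid had regions that were found in both cell types. Each of the 22 classes, initiator methionine and selenocysteine included, had at least 1 region found in all 4 libraries, as had 47 of 48 anticodons. The exception was tyrosine ATA, a single gene with a summit in LNCaP replicate 2 alone, at percentile 22.4. A further 8 regions, whose symbols have another format (TRNAA-AGC, TRNAV-CAC and TRNAI-AAU), had no summit and were not counted in these classes. The share of regions found ran from 28.6% for cysteine (8 of 28) to 94.4% for proline (17 of 18). Arginine had 20 of 24 regions found, 14 in every library, and threonine 17 of 20, 11 in every library.

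Cysteine had the most negative and asparagine the most positive median change of the 22 classes. The 8 found cysteine regions had median percentiles of 62.6 and 57.8 in LNCaP, against 20.6 and 0 in LNCaP-resistance. The groups did not overlap, 4 regions were apart with LNCaP higher and 0 with LNCaP-resistance higher, and the median change was -33.4 points. Of the 8, 5 were those of the chromosome 7 cluster. The 13 found asparagine regions had medians of 66.2 and 69.3 against 86.1 and 76.9, again without overlap, with 6 apart with LNCaP-resistance higher and 3 with LNCaP higher. The 3 asparagine regions found on other chromosomes had a median change of -7.88 points, with 1 higher in LNCaP-resistance and 2 higher in LNCaP, against 18.5 for the 10 on chromosome 1. Of 17 found proline regions 8 were higher in LNCaP and 1 in LNCaP-resistance, where all found tRNA regions had shares of 26.1% and 18.5%. Lysine had 6 and 2 of 18, and alanine 7 and 3 of 21. Valine had 3 and 5 of 17, and its medians of 52.0 and 44.2 against 65.9 and 43.4 overlapped. These classes were read after all 22 had been computed, and their regions are not replicates. Their medians and counts were not run with lists of equal length.

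The initiator methionine tRNA has 8 genes in 8 regions, and 6 of the regions were found in every library. TRX-CAT1-1 at chr1:153671250-153671321, 257 bp from an end of ILF2, was at percentiles 97.0 and 91.5 in LNCaP, against 94.0 and 94.4 in LNCaP-resistance. TRX-CAT1-5 was at 74.6 and 69.3 against 81.0 and 73.6, and TRX-CAT1-8 at 89.0 and 62.2 against 78.9 and 69.9. All 3 overlapped, as did the regions of TRX-CAT1-3 and TRX-CAT1-6. The region of TRX-CAT1-7 and TRG-GCC2-3 was apart, at 76.3 and 75.6 against 73.3 and 64.3, with a difference of -7.16 points that turned to 20.5 with lists of equal length and to 3.17 among shared summits. TRX-CAT1-2 and TRX-CAT1-4, both in the large chromosome 6 cluster, had no summit in any library. TRX-CAT1-2 was the 1 tRNA region with a histone gene end within 1 kb.

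The selenocysteine tRNA has 2 listed loci. TRU-TCA1-1 at chr19:45478601-45478687 was at percentiles 65.8 and 67.7 in LNCaP, against 60.2 and 48.3 in LNCaP-resistance. The groups were apart by -12.5 points against a pooled SD of 6.02, but the difference was 25.2 with lists of equal length and -2.03 among shared summits. TRU-TCA2-1 on chromosome 22 had no summit in any library.

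tRNA regions close to a protein-coding gene were found more often than the others, in counts that were not tested. Of the 42 tRNA regions within 1 kb of a protein-coding gene end 37 (88.1%) were found, 29 in every library, with 0 LNCaP-only and 1 resistant-only. Of the 306 farther away 185 (60.5%) were found, 103 in every library, with 14 LNCaP-only and 8 resistant-only. The share of found regions that were found in every library was 55.7% among the latter. It was 16.2% of the 127093 merged summit regions that also lay farther than 1 kb from such an end, which are not matched in width. The 14 and 8 regions of 1 cell type stand beside 30.5% and 3.61% of these merged regions, the 60 mixed ones beside 49.7%, and the 50 higher in LNCaP and 32 higher in LNCaP-resistance beside 45.5% and 6.91%. Of the 54 regions with several tRNA genes 47 (87.0%) were found, 40 in every library, and their windows are longer than those with 1 gene. Of the 294 with 1 gene 175 (59.5%) were found, 92 in every library. Single genes whose name is shared with other loci were found in 81 of 122 regions, and those with a name of their own in 94 of 164.

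The strongest summits mostly lay within 200 bp of the gene's centre, and fewer lay inside the gene. The window of 500 bp per side limits the distance, and the gene fills only a small part of it. Shares expected from the window alone were not computed. In regions with 1 gene the strongest summit lay a median of 173.5 and 153 bp from the gene's centre in LNCaP, and 173.5 and 197 bp in LNCaP-resistance. Within 200 bp of the centre lay 62.1%, 59.1%, 61.3% and 52.9% of the summits, and inside the gene itself 8.57%, 4.55%, 10.2% and 10.7%. The libraries overlapped in all 3 measures but the last, where both resistant libraries were higher by a few regions. Over the 92 such regions found in every library, the 4 summits of a region spanned a median of 110.5 bp. With the nearest in place of the strongest summit the medians were 161, 136, 165 and 197 bp, and both resistant libraries were then the farther ones.

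Where the strand could be read, the side of the summit could be given. TRN-GTT6-1 had its summits at -129, -101, -73 and -74 bp from the gene start in LNCaP 1, LNCaP 2, resistance 1 and resistance 2, where negative is upstream, at percentiles 89.3, 88.4, 90.9 and 85.1. TRR-ACG2-1 had them at -192, -237, -290 and -199 bp. TRT-TGT6-1, a threonine gene on chromosome 5, had them between -182 and -160 bp, at percentiles from 51.8 to 68.1. TRI-TAT2-2 had its 2 LNCaP summits at -57 and -91 bp. All of these lay upstream of the gene. In contrast, TRG-CCC2-2 had its summits between 409 and 419 bp after the start, beyond the gene's 71 bases. TRF-GAA1-5 had 1 summit at -187 bp, in LNCaP 2, and the others between 275 and 301 bp after the start. An end of SACM1L lies 325 bp from TRR-ACG2-1, and an end of DCT lies 244 bp from TRF-GAA1-5. Whether their summits belong to the tRNA gene or to the protein-coding gene was not tested.

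**Figure D5:**
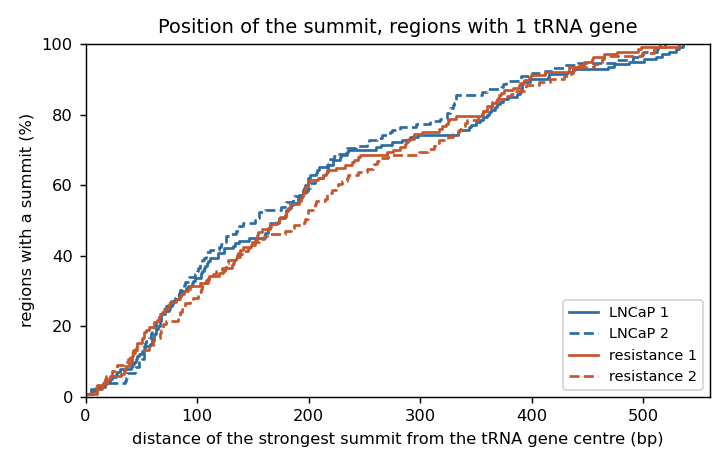
Cumulative percent of regions with 1 tRNA gene (vertical axis) whose strongest summit lay within a given distance of the gene's centre (horizontal axis, bp), 1 line per library. The 4 lines run close together and pass 200 bp at between 52.9% and 62.1%.

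Most other genes of RNA polymerase III were found in both cell types as well. Of 20 such genes outside the 5S family, 17 were found in every library, 2 were apart with LNCaP-resistance higher and 4 with LNCaP higher, with a median change of -2.15 points. Among other short gene regions with a summit, 31% were found in every library, and 16.3% and 32.4% were apart in these directions. RPPH1, the RNA of ribonuclease P, which trims the 5′ end of tRNA, was at percentiles 98.7 and 99.7 against 97.6 and 97.4. RMRP was at 97.8 and 96.9 against 97.0 and 92.2, and RN7SK, the RNA that holds back a transcription elongation factor, at 90.7 and 92.5 against 92.8 and 91.3. VTRNA1-2, a vault RNA gene, was at 98.95 and 98.92 against 83.1 and 85.4, a difference of -14.7 points against a pooled SD of 1.14. VTRNA1-3 and RNY3 were also lower in LNCaP-resistance, with differences of -3.87 and -23.5 points, and RNU6-8 and RN7SL1 were higher by 17.5 and 8.51 points. VTRNA2-1 had no summit. Of the 17 genes of the 5S ribosomal RNA array on chromosome 1, 14 had no summit and 3 had one in resistant replicate 1 alone.

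Of 30 genes for subunits of the polymerase, its factors and early tRNA processing, 27 were found in every library at their starts (at either end where the reference gives no strand), 9 were apart with LNCaP-resistance higher, 4 with LNCaP higher and 17 overlapped. Among protein-coding gene starts with a summit, 67.3% were found in every library. There 27.9% and 19.5% were apart in these directions, near the shares of the list. The median change was -0.279 points. GTF3C1, the largest subunit of transcription factor IIIC, was at 99.01 and 97.1 against 99.7 and 99.7. POLR3B, of the polymerase core, was at 87.6 and 81.7 against 88.9 and 92.4, and POLR3D at 94.99 and 94.7 against 96.7 and 96.2. BRF1, of transcription factor IIIB, overlapped at 58.8 and 58.9 against 53.7 and 63.0. MAF1, which represses the polymerase, overlapped at 95.9 and 92.9 against 92.0 and 98.8. SNAPC2, of the complex used at U6 genes, was at 70.8 and 74.0 against 34.2 and 42.3, a difference of -34.1 points against a pooled SD of 4.34. POLR3E was at 0 and 83.0 against 91.0 and 89.95. The leucine gene TRL-AAG2-4 lies 188 bp from its end and had the same values, so both windows held the same summits.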

How the data were processed

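ATAC-seq summit lists of 4 libraries (2 LNCaP, 2 LNCaP-resistance) were used. The submitters' notes name Bowtie2 2.2.5, SAMtools 1.6, MACS2 2.2.6, deepTools 3.5.2, HOMER 4.11, edgeR 3.22.5 and hg38. Options, filters, the transposase shift and the handling of reads that match several tRNA copies are not given in the sources used here. Each deposited summit carries a score on a −log10 scale, as the authors' caller wrote it per library; whether it is of p or q is not stated. The lists hold no counts, so the depth is unknown. Percentiles, presence and distances were computed from the lists, with positions counted from 1. Gene positions, from the RefSeq GRCh38.p14 table, carry no strand. Genes that the table lists after the chromosome's last gene, with positions of other sequences, were left out.

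Comparison sets were all summits widened by 250 bp per side and merged, other genes of at most 200 bp widened by 500 bp, and windows of 500 bp per side at protein-coding gene starts (both ends of the 3872 genes without a strand). Merged regions farther than 1 kb from a protein-coding gene end were added after seeing the data. The members and lists were chosen with earlier results of these data known. Named were the 10 highest regions, up to 10 of 1 cell type only per cell type, the 5 largest differences in each direction among regions found in all 4 libraries with percentiles apart, initiator methionine and selenocysteine genes, and the polymerase III lists. The other 4 LNCaP-only regions, the regions named to illustrate summit positions and TRL-AAG2-4 were named after their values were seen. Percentiles and classes were tested on simulated lists. Cell types were compared over libraries by exact permutation tests. Wilson intervals cover counting error only. The labels' batch tag gives repeats 1 and 2 the same number in both groups. The correlation of the replicate differences of both cell types was -0.0959 over the 132 regions found in all libraries and -0.0131 over the 31048 merged ones, and differences within each number are given. A planned grouping by identical sequence was void, since 14 of 425 genes had one. It was replaced by shared names. The software was matplotlib 3.10.9, scipy 1.17.1, pandas 2.3.3, numpy 2.4.6 and Python 3.11.15. The grouping by chromosome, the distances to the nearest summit, the B box core and the A box consensus were added after seeing the data.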

Additional observations from a re-analysis of the deposited data

How the results depend on the processing

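Several results turned with the length of the lists. With equal numbers of summits (45618 per list) the share of tRNA regions with a summit turned from -2.59 to 13.6 percentage points and the median percentile of found regions from -2.09 to 40.5 points. The median change was 17.0 points, 85 regions were found in all libraries, 2 were LNCaP-only and 33 resistant-only, 108 were higher in LNCaP-resistance and 7 in LNCaP, and 15.6% of clustered and 41.9% of other regions were found in all 4. There the changes at TRQ-TTG1-1 (1.16), the TRK-TTT5-1 region (7.71), the TRX-CAT1-7 region (20.5) and TRU-TCA1-1 (25.2) turned positive, and of the other named changes 31 moved beyond their replicate spread and 5 did not. With percentiles among shared summits the median percentile turned to 11.1 points and the median change to 6.42. Over the 127 regions that had such a summit in every library, 49 were higher in LNCaP-resistance and 13 in LNCaP. Of the named regions that were apart, those of TRG-GCC3-1 and TRX-CAT1-7 turned to 4.29 and 3.17. Overlapping regions turned positive too, such as TRX-CAT1-1 (4.54) and TRR-TCG1-1 (3.30). With scores of at least 10 the median percentile turned to 4.44 points, 9 regions were LNCaP-only, 5 resistant-only, 33 higher in LNCaP-resistance and 30 in LNCaP, and on chromosome 1 the last counts were 8 and 1. Windows of 250 bp per side gave 79 regions in all libraries and 23 LNCaP-only, and asking for only 1 library of a cell type gave 28 LNCaP-only and 25 resistant-only.

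Without 1 library in turn the share differed by between -5.32 and 0.144 percentage points and the median percentile by between -5.47 and 2.30 points, both turning without resistant replicate 2. LNCaP-only regions numbered between 18 and 29, resistant-only between 13 and 20, and those higher in LNCaP-resistance between 47 and 81 and in LNCaP between 70 and 108. Such counts can only stay or rise when a library is left out, since fewer libraries have to agree. Their rise alone therefore shows neither dependence on 1 library nor its absence. The rises were unequal: LNCaP-only regions numbered 29 without resistant replicate 1 and 19 without resistant replicate 2. The extremes came without resistant replicate 1 (29), without resistant replicate 2 (20 and 81) and without LNCaP replicate 2 (108). Without LNCaP replicate 1 there were 15 resistant-only and 70 higher in LNCaP-resistance. With the replicate number as a block the differences were the same, -2.59 (p = 0.5, exact permutation within numbers, the smallest it allows) and -2.09 (p = 1), and 52 and 76 regions changed the same way within both numbers. Counts by chromosome, cluster and amino acid were not run under the block. Clusters with gaps of at most 100 kb or 1 Mb, windows of 1000 bp and the nearest summit kept the values within their intervals, or counts within 1.5 times. The unknown depth limits what an absent summit shows, and the cause of these dependences was not tested.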

Other observations

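Outside the chromosomes described above, 4 tRNA genes lie on the X chromosome. TRI-GAT1-1, TRI-GAT1-2 and TRI-GAT1-3 had no summit in any library. TRV-TAC1-2, a valine gene, was at percentiles 73.9 and 55.3 in LNCaP, against 59.1 and 59.7 in LNCaP-resistance, so the cell types overlapped.

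A few regions split the libraries of 1 cell type, and they were chosen after their values were seen. The region of TRL-CAA4-1 and TRE-CTC2-1 on chromosome 1 was at percentile 95.9 in LNCaP replicate 1 and had no summit in the other 3 libraries. TRT-TGT2-1 on chromosome 1 was at 89.2 in LNCaP-resistance replicate 2, at 4.44 in LNCaP replicate 2 and without a summit in the others. TRS-GCT4-1 and TRL-CAA1-1 on chromosome 6 lacked a summit in LNCaP-resistance replicate 1 alone, with 81.5, 78.5 and 78.4, and 59.0, 67.7 and 74.7, in the other libraries. TRL-AAG2-4 lacked one in LNCaP replicate 1 alone.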
